A study of Mus musculus with 12 samples.

Results

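The leukocyte adhesion molecules described here are 8 genes through which vessel walls meet white blood cells: Sele, Selp, Madcam1, Icam1, Icam2, Vcam1, Cd34 and Lrg1. They were taken by name as rows of the expression table, which lists 17362 genes, and all 8 were found. RNA was sequenced from endothelium of untreated B6 mice, sorted out of crushed long bones and iliac bone into 4 populations of 3 libraries each. The age of the mice is not given, and the triplicates came from 6 mice. CD200-high capillaries were gated as CD200Hi, Sca1+, CD31+, EMCN- and CD45-. Type H vessels, which are bone vessels known for abundant endomucin (EMCN), were gated as EMCN+, Sca1+, CD31+ and CD45-. Arterial cells were gated as CD200-, Sca1+, CD31+ and CD45-. The libraries labelled sinusoidal were gated as CD31+, Sca1+ and CD45-, a gate which as labelled does not exclude cells of the other populations.

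Leukocytes leave or enter the blood in steps. Selectins on activated endothelium catch passing cells through sugar-bearing mucins and let them roll, and immunoglobulin-family molecules such as ICAM-1, ICAM-2 and VCAM-1 then bind leukocyte integrins and arrest them. Much of this set is induced by TNF and IL-1 through NF-kB. In bone marrow, unlike in most resting tissue, sinusoidal endothelium is known to carry E-selectin, P-selectin and VCAM-1 without inflammation, and blood progenitors use them for homing.

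Expression is given as log2 CPM, the log2 of reads per 1e6 reads after the authors' scaling, with 0.5 read added to each count, so that a gene with no reads stands near -5. Differences are in log2 units ± SE, and a difference was called at a limma adjusted p under 0.05 over 17086 genes kept by a filter on low reads. Each library listed between 7.33 and 21.6 M reads (M, 1e6). All 8 genes passed the filter, but Madcam1 did so through type H alone, with at least 10 scaled reads in 3 libraries, against 8 libraries for Sele, 11 for Selp and 12 for the other 5 genes.

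The libraries differed in how much endothelial RNA they held. The 16 pan-endothelial marker genes, such as the cadherin Cdh5, took 0.962 to 0.987% of listed reads in type H, 0.302 to 0.580% in CD200-high, 0.178 to 0.237% in arterial libraries and 0.0277 to 0.0286% in those labelled sinusoidal, where Sox17 had no reads. The 12 markers of sinusoidal endothelium went against that last label. They took 1.38 to 1.64% in type H and 0.0152 to 0.0163% in the libraries labelled sinusoidal, below the 0.0599 to 0.106% of CD200-high and the 0.0320 to 0.0585% of arterial libraries. Genes of the gate markers did not all follow the gates, though Cd200 was highest in CD200-high (9.81 ± 0.02 log2 CPM). Emcn stood at 8.26 ± 0.42 in CD200-high, gated EMCN-, against 9.02 ± 0.03 in type H. In the libraries labelled sinusoidal the Sca1 gene Ly6a stood at 4.05 ± 0.71 and the CD45 gene Ptprc at 6.55 ± 0.31. In type H they stood at 8.92 ± 0.39 and 3.98 ± 0.57. In sorted bulk RNA a low value can come from fewer cells of a type or from less RNA per cell, and these cannot be told apart. The part of endothelial content in the differences below was not tested as a cause, but each difference was also computed after a shift that made the pan-endothelial medians of all libraries equal. The 16 genes include Pecam1 and Emcn, which encode the gate markers CD31 and EMCN, so the shares and the shift are not independent of the sort. They also include Esam and Eng, which are described below.

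**Figure D1:**
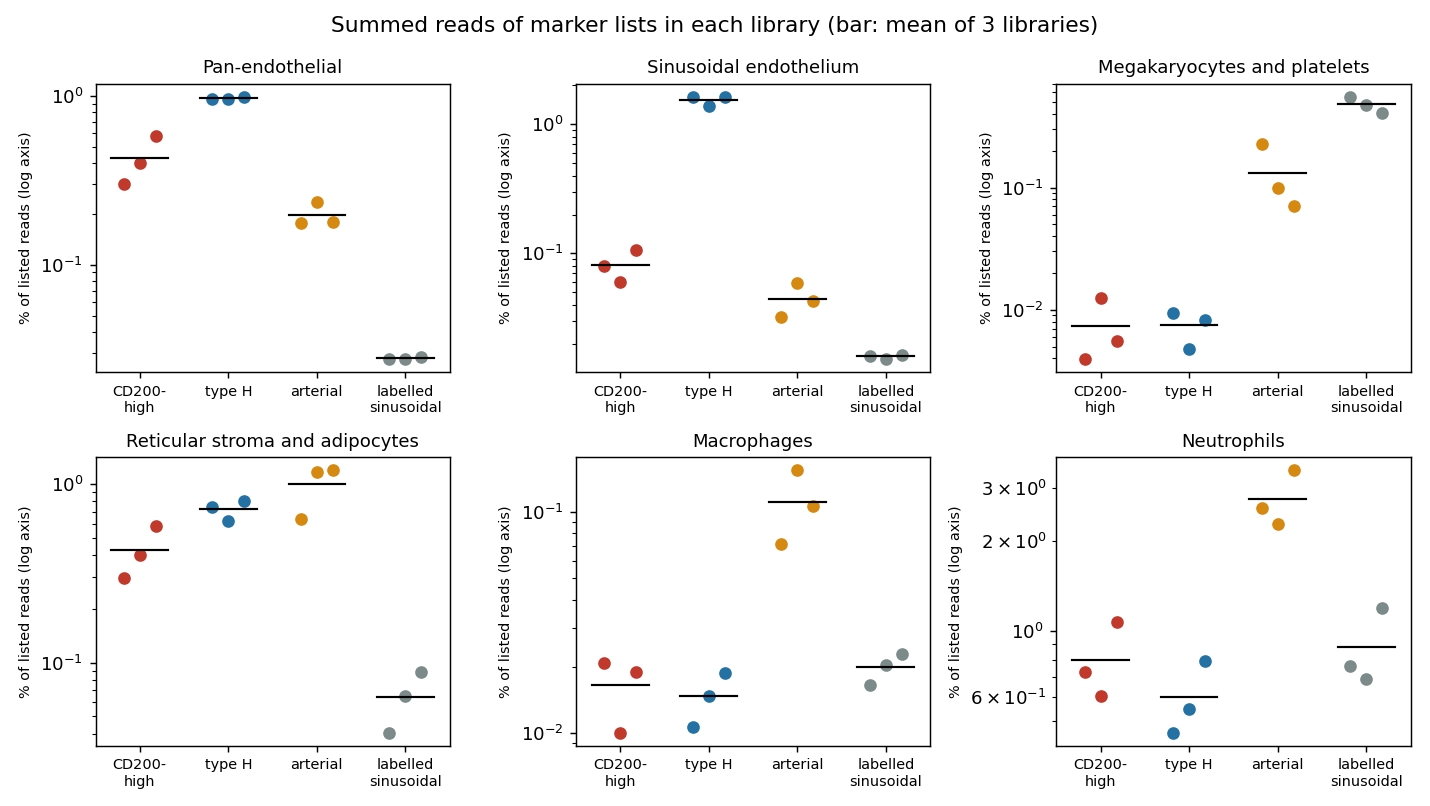
Percent of listed reads (log axis) taken by 6 marker lists in each library, with 1 point per library and a bar at the mean of 3. Pan-endothelial and sinusoidal markers were highest in type H, and the libraries labelled sinusoidal held the fewest of both and the most megakaryocyte and platelet markers.

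With the scaling as deposited, 7 of the 8 genes were highest in type H, meaning called higher there than in each of the other 3 populations. With equal pan-endothelial medians this held for 1 gene, Madcam1, whose values outside type H rest on the 0.5 read added. The 7 were Sele, Selp, Madcam1, Icam1, Icam2, Vcam1 and Lrg1, and Cd34 was the exception. Among all genes tested, 493 of 17086 (2.89%) were highest in type H, 1.57% in CD200-high, 1.0% in arterial libraries and 1.29% in those labelled sinusoidal. Of the 8, 0 were highest in any of the last 3 populations with the deposited scaling. The 8 genes were chosen with earlier results of these data known, so these shares are a description and no test of the set. With equal pan-endothelial medians 4 of the 8, Icam1, Icam2, Selp and Lrg1, were highest in the libraries labelled sinusoidal. On that scale 15608 of the 17086 genes were called lower in type H than in those libraries. With the deposited scaling all 21 tests of the 7 genes between type H and another population were called, and in all 21 the 3 type H libraries lay above the 3 others. Those of Madcam1 were close to fixed beforehand. That gene had no reads outside type H and passed the filter through type H alone. Against CD200-high, 7 of the 8 genes were higher in type H and 0 lower, where 6.35% of all genes were higher and 6.66% lower in type H (13.0% called in all). The 10 osteoblast and bone stroma markers took 14.0 ± 2.2% of reads in CD200-high (SD, n = 3), 0.413 to 0.539% in type H, 1.63 to 1.88% in arterial libraries and 0.886 to 1.87% in those labelled sinusoidal (lowest and highest library). Of these 10 markers, type H was below CD200-high in 10 (median difference 9.28), below arterial libraries in 9 and below those labelled sinusoidal in 7. The part of that RNA in the type H differences was not tested. Against arterial libraries 7 of the 8 adhesion genes were higher in type H and 0 lower, where 7.96% of all genes were higher and 12.7% lower (20.7% called). Against the libraries labelled sinusoidal all 8 were higher, where 13.9% of all genes were and 14.6% lower (28.6% called). The share of all genes whose libraries did not overlap was 30.9%, 40.0% and 46.8% in these 3 comparisons. Leaving out 1 library at a time gave 6 or 7 genes highest in type H, since Vcam1 dropped out without type H replicate 1 or 3 or arterial replicate 1 or 3, and Selp without sinusoidal replicate 2. The 3 comparisons share the type H libraries.

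**Figure D2:**
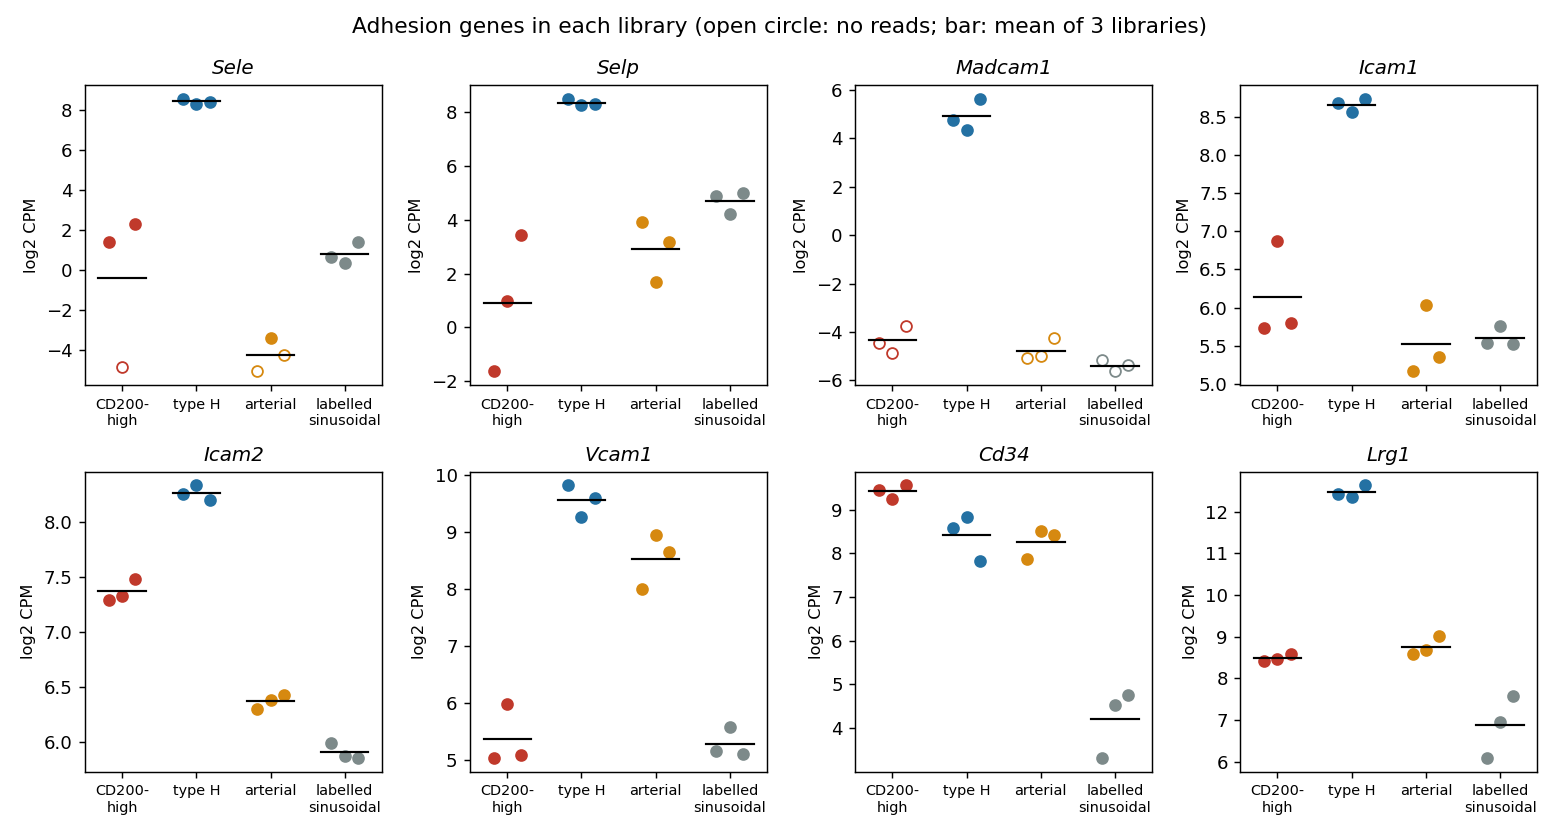
Expression (log2 CPM) of the 8 genes in each of the 12 libraries, with 1 point per library, open where no read was listed, and a bar at the mean of 3. Each panel has its own scale. The type H points lie above all others for 7 genes with this scaling, and for Cd34 the CD200-high points are the highest.

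Sele, which encodes E-selectin, the cytokine-induced selectin that slows neutrophils and progenitors on endothelium, was near the floor outside type H. Its type H libraries stood at 8.57, 8.32 and 8.41 log2 CPM, from 7393, 5743 and 5277 reads. The CD200-high libraries stood at 1.40, -4.85 and 2.31, from 28, 0 and 33 reads, and the libraries labelled sinusoidal at 0.67, 0.35 and 1.41, from 28, 31 and 54 reads. Arterial libraries held 0, 1 and 0 reads. Every type H library lay far above all 9 others, and the CD200-high libraries were split, with 1 at 0 reads. The difference from the libraries labelled sinusoidal was 7.62 ± 1.56 (adjusted p = 0.0032), or 197-fold, and came to 1.34 without a call when pan-endothelial medians were made equal (adjusted p = 0.408, over a range of 1.1e-08 to 0.408). That from CD200-high was -8.81 ± 1.56 as CD200-high minus type H (adjusted p = 0.00301), and -6.58, -9.70 and -10.16 without CD200-high replicates 2, 1 and 3, so its size rests on the library with no reads. Against arterial the ratio of summed reads, corrected for library size, was 14707 (95% interval 2639 to 580925, for counting error only; limma adjusted p = 0.00022).

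Between the other populations Sele was at a low level and no comparison was called. CD200-high and arterial libraries differed by 61 against 1 read, a ratio of 80.6 (95% interval 13.9 to 3237, counting error only). This did not pass over libraries (3.86 ± 1.56, adjusted p = 0.133), but did without CD200-high replicate 2 (6.09, adjusted p = 0.00222, with a range of 0.00222 to 0.433 over the alternatives). The libraries labelled sinusoidal held 113 reads against 1 in arterial, a ratio of 75.7 (13.3 to 3014), with adjusted p = 0.0649. That comparison passed when these 2 populations were fitted alone (0.0236) and without CD200-high replicate 2 (0.00204) or 3 (0.043), over a range of 0.000148 to 0.581. CD200-high and the libraries labelled sinusoidal overlapped (adjusted p = 0.609).

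Selp encodes P-selectin, which endothelium and platelets store in granules and move to the surface within minutes of activation. Its type H libraries stood at 8.49, 8.24 and 8.29 log2 CPM, from 6997, 5427 and 4839 reads. The libraries labelled sinusoidal followed at 4.87, 4.22 and 4.98, then arterial at 3.92, 1.68 and 3.17 and CD200-high at -1.63, 0.99 and 3.42, the lowest from 3 reads. Type H lay above all 9 other libraries, and the 3 CD200-high libraries spread over a wider range than the libraries of any other population. The differences from type H were 3.65 ± 1.0 for the libraries labelled sinusoidal (adjusted p = 0.0165, 12.6-fold), 5.42 ± 1.0 for arterial (adjusted p = 0.0027, 42.7-fold) and 7.41 ± 1.0 in size for CD200-high (adjusted p = 0.000467, 170-fold). The last difference, as CD200-high minus type H, was -6.14 without CD200-high replicate 1 and -8.66 without replicate 3, that from arterial 4.79 without arterial replicate 2. That from the libraries labelled sinusoidal was lost without sinusoidal replicate 2 (3.41, adjusted p = 0.0574, the highest of a range that starts at 3.01e-06), and its sign turned with equal pan-endothelial medians (-2.64).

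Selp was also lower in CD200-high than in the libraries labelled sinusoidal (-3.76 ± 1.0, adjusted p = 0.0153). Without CD200-high replicate 1 this was -2.49 and without replicate 3 it was -5.01, and it did not pass when the 2 populations were fitted alone (adjusted p = 0.0641, over a range of 8.45e-07 to 0.0641). Arterial did not pass against CD200-high (adjusted p = 0.224) or the libraries labelled sinusoidal (adjusted p = 0.33). Without CD200-high replicate 3 the first of these passed (-3.24, adjusted p = 0.0211, over a range of 0.00851 to 0.601). Platelet RNA also carries Selp. The 11 megakaryocyte and platelet markers took 0.00479 to 0.00934% of reads in type H, 0.00397 to 0.0126% in CD200-high, 0.0701 to 0.227% in arterial libraries and 0.409 to 0.553% in those labelled sinusoidal, with no marker at 0 reads throughout a population. All 11 were lower in type H than in the libraries labelled sinusoidal, among them Pf4, platelet factor 4, at 5.33 ± 0.43 against 10.22 ± 0.08 log2 CPM. So Selp was highest where these markers were low, whereas the order of the libraries labelled sinusoidal over arterial over CD200-high in Selp was also that of the platelet markers, whose part in it was not tested.

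Sele and Selp belong to the selectin gene cluster of chromosome 1, and their promoters are shown because both genes were called highest in the same population with the deposited scaling. The RefSeq promoter table holds 6 of the 8 genes, on build GRCm38.p6. The 250 bases before the start site were searched on both strands for the NF-kB consensus, the AP-1 motif TGANTCA and the TATA box TATAAA, which 7.25%, 6.75% and 12.4% of 32851 promoters of that length hold. No 2 matches overlapped. Sele lies at chr1:164047984-164048233 and Selp at chr1:164115014-164115263, both on the plus strand, written 5′ to 3′ with matches in capitals:
Sele: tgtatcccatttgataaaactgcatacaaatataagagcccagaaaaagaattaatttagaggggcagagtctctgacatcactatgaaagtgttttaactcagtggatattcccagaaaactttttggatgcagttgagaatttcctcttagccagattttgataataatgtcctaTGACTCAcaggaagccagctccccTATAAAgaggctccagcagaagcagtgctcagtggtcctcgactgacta
Selp: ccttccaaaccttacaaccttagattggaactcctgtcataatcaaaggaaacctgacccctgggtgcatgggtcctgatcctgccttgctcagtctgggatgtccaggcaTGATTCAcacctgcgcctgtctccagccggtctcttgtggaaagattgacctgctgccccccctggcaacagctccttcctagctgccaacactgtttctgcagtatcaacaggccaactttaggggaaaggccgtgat
In Sele the capitals mark an AP-1 match, TGACTCA, 73 to 67 bases before the start, and a TATA box 49 to 44 bases before it. In Selp they mark an AP-1 match, TGATTCA, 139 to 133 bases before the start. The NF-kB consensus had no exact match in these windows of Sele and Selp. A match is a description of letters, not a site shown to be bound.

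Madcam1 encodes the mucosal addressin, a vessel molecule of gut and gut-associated lymphoid tissue that binds the integrin α4β7 and, when decorated with sugars, L-selectin. It had 0 reads in all 9 libraries outside type H. The 3 type H libraries held 521, 363 and 767 reads, or 4.74, 4.34 and 5.63 log2 CPM. Set against a floor of 3 reads per library, the lowest type H library was at least 45.5-fold higher than CD200-high, at least 63.2-fold higher than arterial and at least 121-fold higher than the libraries labelled sinusoidal. All 3 comparisons were called (adjusted p = 6e-05, 5.24e-05 and 8.25e-06), which the filter favoured, as the gene passed it only through type H. Per kb of annotated exons its mean was the lowest of the 8 genes in type H. Its libraries (14.0 to 34.5 CPM per kb) overlapped with those of Cd34 (30.9 to 62.5). Its promoter, chr10:79664309-79664558 on the plus strand, is shown because it was the one of the 6 with the NF-kB consensus:
Madcam1: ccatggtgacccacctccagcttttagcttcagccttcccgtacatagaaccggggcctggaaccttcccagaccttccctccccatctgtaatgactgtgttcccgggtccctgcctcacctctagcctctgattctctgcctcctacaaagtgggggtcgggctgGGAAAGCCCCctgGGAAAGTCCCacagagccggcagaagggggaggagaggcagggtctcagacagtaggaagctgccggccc
The capitals mark both matches, GGAAAGCCCC at 83 to 74 and GGAAAGTCCC at 70 to 61 bases before the start, which read as the consensus on the opposite strand. The promoters of Icam1, Cd34 and Lrg1 held none of the 3 motifs in this window, which says only that these letters are not there.

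Icam1 encodes ICAM-1, the cytokine-inducible ligand of the leukocyte integrins LFA-1 and Mac-1. Its type H libraries stood at 8.68, 8.56 and 8.74 log2 CPM. The CD200-high libraries stood at 5.74, 6.87 and 5.79, arterial at 5.16, 6.04 and 5.35, and the libraries labelled sinusoidal at 5.54, 5.76 and 5.53. Type H was separate from the other 3 populations, which overlapped with one another. The gene was 5.76-fold higher in type H than in CD200-high, 8.83-fold higher than in arterial (3.14 ± 0.31, adjusted p = 5.86e-05) and 8.30-fold higher than in the libraries labelled sinusoidal (3.05 ± 0.31, adjusted p = 2.07e-05). No pair of the other 3 populations passed (CD200-high minus arterial 0.62 ± 0.31, adjusted p = 0.226; CD200-high minus sinusoidal 0.53, adjusted p = 0.229; arterial minus sinusoidal -0.09, adjusted p = 0.909). With equal pan-endothelial medians all 3 of these passed, at -0.94 (adjusted p = 0.0428, over a range of 0.0428 to 0.594), -4.90 (3.1e-08, over 3.1e-08 to 0.69) and -3.96 (5.75e-07, over 5.75e-07 to 0.998). On that scale the difference of type H from arterial was 0.73 and did not pass (adjusted p = 0.0821, over a range of 7.86e-06 to 0.0821).

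Icam2 encodes ICAM-2, which resting endothelium carries constitutively as an LFA-1 ligand, and it was the gene of the set with the smallest spread between libraries. Type H libraries stood at 8.26, 8.34 and 8.20 log2 CPM, CD200-high at 7.30, 7.33 and 7.49, arterial at 6.30, 6.38 and 6.43, and the libraries labelled sinusoidal at 5.99, 5.87 and 5.86. None of the 4 populations overlapped, in that order from high to low. Type H exceeded CD200-high by 1.86-fold (-0.89 ± 0.14 as CD200-high minus type H, adjusted p = 0.00125), CD200-high exceeded arterial by 1.0 ± 0.14 (adjusted p = 0.00102), and arterial minus sinusoidal, at 0.46 ± 0.14, did not pass (adjusted p = 0.0562) except with a stricter filter on low reads (adjusted p = 0.0415) and, turned in sign, after the shift (over a range of 2.23e-07 to 0.172). Type H exceeded arterial 3.72-fold (adjusted p = 8.36e-06) and the libraries labelled sinusoidal 5.13-fold (adjusted p = 3.69e-07), and CD200-high exceeded the latter by 1.47 (adjusted p = 1.68e-05). This order was that of the pan-endothelial marker share, and with equal pan-endothelial medians type H and CD200-high differed by -0.04 (adjusted p = 0.935, over a range of 0.000438 to 0.935) and type H and arterial by -0.52.

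Vcam1 encodes VCAM-1, the ligand of integrin α4β1 that retains blood progenitors and B cell precursors in marrow. Its type H libraries stood at 9.82, 9.26 and 9.60 log2 CPM and the arterial libraries at 7.99, 8.94 and 8.65. CD200-high stood at 5.03, 5.97 and 5.08 and the libraries labelled sinusoidal at 5.15, 5.58 and 5.10. Type H and arterial thus formed a high pair that did not overlap, and CD200-high and the libraries labelled sinusoidal a low pair that did. Type H was 18.3-fold above CD200-high (adjusted p = 6.47e-06) and 19.4-fold above the libraries labelled sinusoidal (4.28 ± 0.30, adjusted p = 1.4e-06), and arterial exceeded the latter by 3.25 ± 0.30 (adjusted p = 4.7e-05). CD200-high minus sinusoidal was 0.08 (adjusted p = 0.864).

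The lead of type H over arterial in Vcam1 was 2.04-fold (1.03 ± 0.30, adjusted p = 0.032) and rested on single libraries. It did not pass without type H replicate 1 (adjusted p = 0.106), type H replicate 3 (0.0796), arterial replicate 1 (0.127) or arterial replicate 3 (0.0642), over a range of 0.00284 to 0.127, and it turned to -1.39 with equal pan-endothelial medians. Reticular stroma and macrophages also express Vcam1. The 10 reticular stroma and adipocyte markers took 0.623 to 0.805% of reads in type H, 0.633 to 1.19% in arterial, 0.297 to 0.579% in CD200-high and 0.0405 to 0.0883% in the libraries labelled sinusoidal. Of these 10 markers 7 were lower and 1 higher in type H than in arterial, with the stromal leptin receptor gene Lepr at 6.89 ± 0.34 against 8.81 ± 0.66 log2 CPM. The 10 macrophage markers took 0.0712 to 0.154% of reads in arterial and 0.0107 to 0.0187% in type H, 0.0101 to 0.0207% in CD200-high, where Vsig4 had no reads, and 0.0164 to 0.0227% in the libraries labelled sinusoidal. The part of these cells in the Vcam1 values was not tested.

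**Figure D3:**
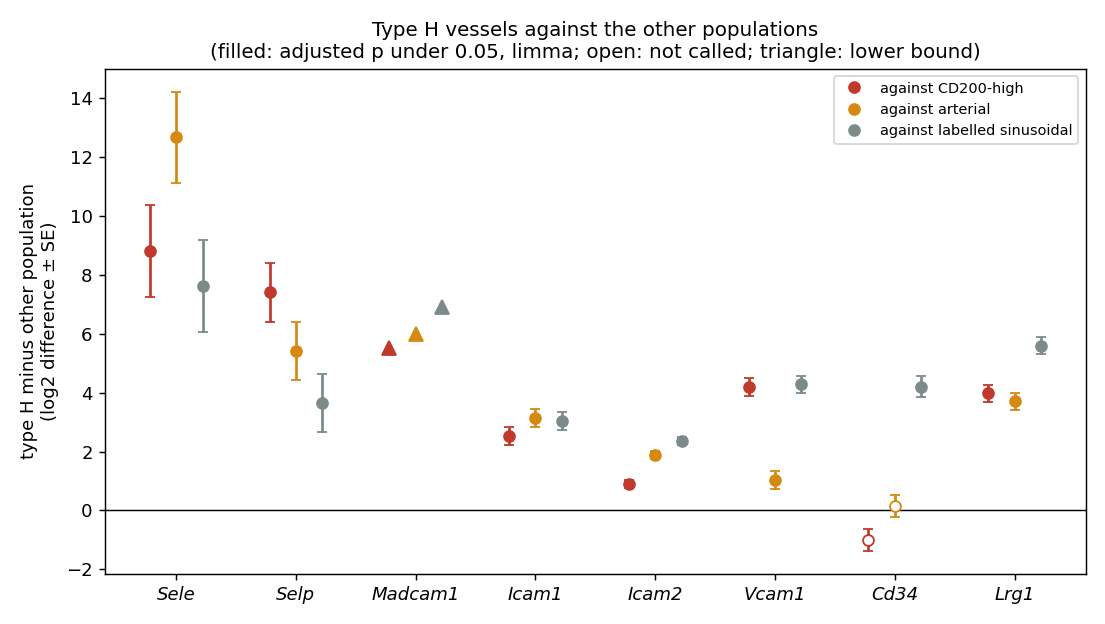
Difference between type H and each other population (log2, type H minus the other, points ± SE from limma) for the 8 genes, filled where adjusted p was under 0.05. Triangles are lower bounds for Madcam1, which had no reads outside type H, and the Sele difference from arterial depends on the 0.5 read added. With the deposited scaling 7 genes lie above 0 in all 3 comparisons, while Cd34 lies above 0 with a call only against the libraries labelled sinusoidal.

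Cd34 encodes a sialomucin of capillary endothelium and blood progenitors that serves as an L-selectin ligand when suitably sulphated and fucosylated. CD200-high libraries stood at 9.45, 9.24 and 9.56 log2 CPM, type H at 8.59, 8.83 and 7.82, arterial at 7.86, 8.51 and 8.41 and the libraries labelled sinusoidal at 3.31, 4.53 and 4.76. CD200-high lay above the other populations without overlap, type H and arterial overlapped, and the libraries labelled sinusoidal were far below. The excess of CD200-high did not pass against arterial (1.16 ± 0.36, adjusted p = 0.0579) or type H (1.01 ± 0.36, adjusted p = 0.0953). Against arterial it passed in 6 alternatives, with 1 or 10 CPM added before the log (adjusted p = 0.0353 and 0.0131), with voom (0.00855), with the 2 populations fitted alone (0.0134) and without type H replicate 3 (0.045) or sinusoidal replicate 1 (0.0176), over a range of 0.00855 to 0.295. Against type H it passed in 4, with 10 CPM added (0.0309), with voom (0.014), without sinusoidal replicate 1 (0.0304) and with equal pan-endothelial medians (1.86, adjusted p = 0.00163), over a range of 0.00163 to 0.281.

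The 3 other populations all exceeded the libraries labelled sinusoidal in Cd34, CD200-high by 5.22 ± 0.36 (adjusted p = 1.89e-06), type H by 4.21 (adjusted p = 6.14e-06) and arterial by 4.06 (adjusted p = 3.44e-05). Type H and arterial differed by 0.15 ± 0.36 (adjusted p = 0.813). After the shift the signs against the libraries labelled sinusoidal turned for CD200-high (-0.21) and type H (-2.07), and arterial no longer passed (0.19, adjusted p = 0.6, over a range of 7.19e-06 to 0.6). Stem and progenitor cells carry Cd34 as well, and their 10 markers took 0.0126 to 0.0162% of reads in CD200-high, 0.0164 to 0.0173% in type H, 0.0547 to 0.0696% in arterial libraries and 0.0697 to 0.0778% in those labelled sinusoidal. Their sum was thus lowest where Cd34 was highest and highest where it was lowest, but single markers differed. Of these 10 markers 7 were called lower in CD200-high than in the libraries labelled sinusoidal and 1 higher. Flt3, a receptor gene of progenitors, had no reads in CD200-high, whereas Mecom, a transcription factor gene of stem cells that endothelium also expresses, stood at 4.83 ± 0.42 log2 CPM in CD200-high and had no reads in the libraries labelled sinusoidal. The part of these cells in the Cd34 values was not tested.

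Lrg1 encodes a secreted leucine-rich glycoprotein of venules and neutrophil granules that alters TGF-beta signalling in endothelium, and so belongs to the set as a vessel product and not as an adhesion receptor. Type H libraries stood at 12.42, 12.36 and 12.64 log2 CPM, CD200-high at 8.42, 8.47 and 8.58, arterial at 8.58, 8.68 and 9.03 and the libraries labelled sinusoidal at 6.08, 6.94 and 7.58. Type H was well clear of the rest, CD200-high and arterial were close, and the libraries labelled sinusoidal lay below both. Type H exceeded CD200-high 15.8-fold (adjusted p = 6.42e-06), arterial 13.1-fold (3.71 ± 0.29, adjusted p = 1.25e-05) and the libraries labelled sinusoidal 48.6-fold (5.60 ± 0.29, adjusted p = 1.1e-07). CD200-high and arterial differed by -0.27 ± 0.29 (adjusted p = 0.591), or by -1.83 with a call at equal pan-endothelial medians (adjusted p = 0.000222, over a range of 0.000222 to 0.848), and both exceeded the libraries labelled sinusoidal, by 1.62 (adjusted p = 0.00136) and 1.89 (adjusted p = 0.00127). With equal pan-endothelial medians the excess of type H was 1.30 over arterial, and against the libraries labelled sinusoidal it turned to -0.68. The 11 neutrophil markers took 0.456 to 0.793% of reads in type H, 0.607 to 1.07% in CD200-high, 2.26 to 3.43% in arterial libraries and 0.688 to 1.19% in those labelled sinusoidal. All 11 were lower in type H than in arterial, and no neutrophil marker was called higher in type H than in any other population. Within each of the 4 populations replicate 3 held both the highest Lrg1 value and the highest neutrophil marker share. The part of neutrophil RNA in the Lrg1 values was not tested.

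Divided by the merged length of all annotated exons of a gene (GENCODE vM21, CPM per kb), the genes of the set can be ranked within a population. That length, 8870 bases for Vcam1 and 7290 for Cd34, can exceed the transcripts made, so the ranks depend on it. Before the division Vcam1, at 763 CPM, came next after Lrg1, at 5704 CPM, in type H. In type H Lrg1 reached 4051 ± 418 CPM per kb (SD, n = 3) and made up 87.0% of the 8 genes. It was followed by Icam2 at 162, Sele at 119, Icam1 at 92.9, Vcam1 at 86.0, Selp at 73.5, Cd34 at 48.7 and Madcam1 at 22.4. The ranges of Icam1 (86.6 to 98.0) and Vcam1 (68.9 to 102) overlapped, as did those of Vcam1 and Selp (68.3 to 81.4). In CD200-high the order was Lrg1 at 256, Cd34 at 94.2 and Icam2 at 87.2, whose ranges overlapped, then Icam1 at 17.3 and Vcam1 at 4.85, with Selp at 0.971 and Sele at 0.854. Arterial libraries had Lrg1 at 311 and then Icam2, Vcam1 and Cd34 together at 43.5, 43.2 and 42.8. The libraries labelled sinusoidal had Lrg1 at 90.5, Icam2 at 31.5 and Icam1 at 11.2. Lrg1 led in all 4 populations. By its mean Sele came after Lrg1 and Icam2 in type H and Selp after Vcam1, and in CD200-high and arterial libraries both selectins lay below Vcam1. In the libraries labelled sinusoidal Selp, at 5.99, lay above Vcam1, at 4.41, with overlapping ranges, and Sele below both at 0.623.

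Between the 3 populations other than type H the set moved less. CD200-high against arterial had 2 of the 8 genes called, where 12.9% of all genes were (4.75% higher and 8.15% lower), with Icam2 higher and Vcam1 lower in CD200-high (-3.17 ± 0.30). The libraries of these populations did not overlap in 32.2% of all genes. CD200-high against the libraries labelled sinusoidal had 4 called, where 28.7% were (14.1% higher and 14.6% lower), with Icam2, Cd34 and Lrg1 higher and Selp lower, and 46.5% of all genes did not overlap. Arterial against the libraries labelled sinusoidal had 3 called, where 10.2% were (8.09% higher and 2.14% lower), with Vcam1, Cd34 and Lrg1 higher in arterial, and 39.5% of all genes did not overlap. Madcam1 had no reads on either side of these comparisons. The medians over the genes with reads were 0.62, 0.53 and 0.46, against -0.22, -0.22 and -0.02 over all genes tested. In the comparisons with type H they were -4.09 for CD200-high minus type H, 3.43 for type H minus arterial and 4.25 for type H minus sinusoidal, with Madcam1 at its bound or not, against -0.05, -0.20 and -0.20.

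How far type H stood apart depended on the yardstick. Rescaling to the total of listed reads moved the median of all genes by -0.31 to -0.05 and changed no call of the 8 genes in the 6 comparisons. A shift that made the pan-endothelial medians equal moved it by 0.86 for CD200-high minus type H, -1.56 for CD200-high minus arterial, -5.43 for CD200-high minus sinusoidal, -2.42 for type H minus arterial, -6.29 for type H minus sinusoidal and -3.87 for arterial minus sinusoidal. On that scale Sele, Selp, Madcam1, Icam1, Vcam1 and Lrg1 were still called higher in type H than in CD200-high, and Cd34 lower. Against arterial Sele (10.26), Selp (3.0), Madcam1 and Lrg1 (1.30) were higher and Vcam1 (-1.39) and Cd34 (-2.26) lower. Against the libraries labelled sinusoidal Madcam1 was higher and 6 of the 8 were lower. The medians of the set on that scale were -3.23, 1.01 and -2.04 for CD200-high minus type H, type H minus arterial and type H minus sinusoidal, against 0.81, -2.62 and -6.49 over all genes. The distance between the set and all genes is the same on both scales by construction, since the shift moves every gene of a library alike. Among the other 3 populations the shift left no gene of the set called higher in CD200-high than in arterial or sinusoidal libraries, or in arterial than in sinusoidal ones. There 4, 6 and 5 genes with reads were called lower. For type H against the libraries labelled sinusoidal 15705 of 17086 genes were called on that scale.

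**Figure D4:**
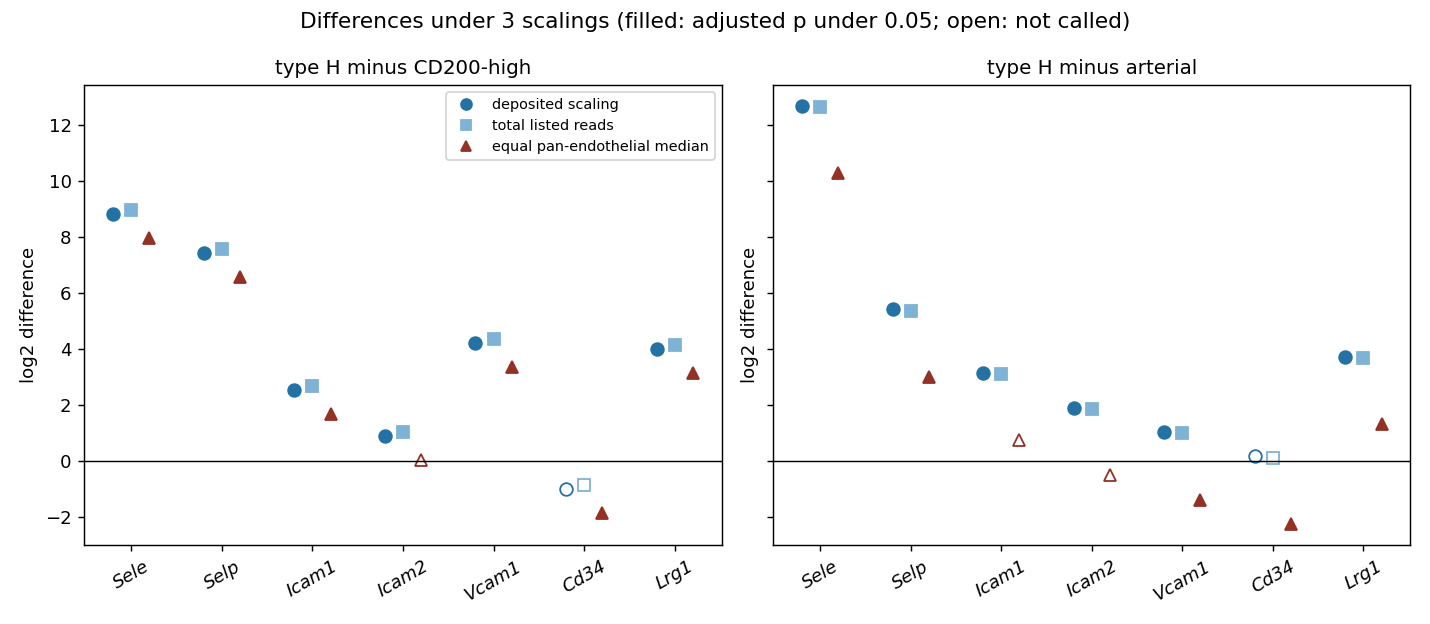
Differences (log2) of type H from CD200-high (left) and from arterial (right) for 7 genes under the deposited scaling (circles), total listed reads (squares) and equal pan-endothelial medians (triangles), filled where adjusted p was under 0.05. Madcam1 is left out, having no reads outside type H. Triangles for Vcam1, Icam2 and Cd34 lie below 0 against arterial, while those of Sele, Selp and Lrg1 stay above it.

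For each gene the 3 genes with the most similar pattern were taken as those with the highest Pearson r over the 12 libraries, among 7502 expressed and named genes. These values share libraries and depth and are a description. Icam1 was nearest to Dnase1l3, Clca3a1 and Ang (0.97 each) and Icam2 to Atox1 (0.99), Elk3 and Cdk17 (0.98 each). Vcam1 was nearest to Axl (0.99), Rarres2 (0.98) and Serpina3g (0.96), and Cd34 to Slc9a3r2, Nrep (0.99 each) and Col4a2 (0.98). Sele was nearest to Ctnnal1 (0.95), Pigq (0.94) and Vps45 (0.93), and Selp to Psmd3 (0.98), Mapk7 (0.95) and Nfkb1 (0.94), an NF-kB subunit gene. Madcam1 was nearest to Jak1 (0.98), Arrb1 and Cltc (0.97 each), and Lrg1 to Tmem37, Cadm3 and Selenop (0.98 each). Within the set the highest values were Icam1 with Madcam1 (0.95) and Madcam1 with Lrg1 (0.94), and the lowest was Selp with Cd34 (-0.22). The values with Madcam1 rest on type H, since its other 9 values hold no reads and follow library size alone. Other values also changed without the 3 type H libraries. Icam1 with Sele went from 0.79 to -0.18, Icam1 with Selp from 0.68 to -0.47 and Sele with Lrg1 from 0.70 to -0.50. Selp with Cd34 came to -0.72, while Cd34 with Lrg1 rose in value from 0.55 to 0.91 and Icam2 with Cd34 from 0.67 to 0.84. All values of the nearest genes include type H.

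Related genes were followed through 6 lists, with up to 3 genes named from each by how often they were called. The comparisons of type H with CD200-high and arterial are given, since the libraries labelled sinusoidal held little endothelial RNA. Of all genes tested, 6.35% were higher and 6.66% lower in type H than in CD200-high, and 7.96% higher and 12.7% lower than in arterial. Their medians were -0.05 for CD200-high minus type H and -0.20 for type H minus arterial. After the shift 395 of 17086 genes were higher and 2799 lower than in CD200-high, and 181 higher and 12390 lower than in arterial. The first list held signalling genes, inhibitors of NF-kB among them. Of 24 genes of TNF, IL-1 and NF-kB signalling, 9 were higher in type H than in CD200-high and 0 lower (6 to 9 and 0 to 2 without 1 library), and 7 higher and 1 lower than in arterial (5 to 8 and 0 to 3), with list medians of -0.94 for CD200-high minus type H and 0.45 for type H minus arterial. Tnfrsf1a, the main TNF receptor gene, stood at 8.87 ± 0.11 in type H against 7.20 ± 0.33 in CD200-high (adjusted p = 0.00096) and 7.08 ± 0.42 log2 CPM in arterial (adjusted p = 0.000455). Nfkbie, an NF-kB inhibitor gene, stood at 6.89 ± 0.40 in type H, 3.51 ± 0.26 in CD200-high (adjusted p = 8.3e-06), 5.80 ± 0.23 in arterial (adjusted p = 0.00995) and as high in the libraries labelled sinusoidal, at 6.99 ± 0.11. Ltbr, the lymphotoxin beta receptor gene, stood at 7.59 ± 0.03 in type H, 5.75 ± 0.53 in arterial (adjusted p = 0.00153) and 6.47 ± 0.33 in CD200-high (adjusted p = 0.0343), the last lost without CD200-high replicate 1 or 3 or any type H library (adjusted p = 0.0752 to 0.0946, over a range of 0.00693 to 0.584). With equal pan-endothelial medians this list turned against arterial, to 0 higher and 19 lower in type H, and was 4 and 4 against CD200-high, and the differences of Tnfrsf1a, Ltbr and Nfkbie from arterial turned in sign.

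Of 16 other adhesion and transmigration genes tested, of 19 listed, 4 were higher and 3 lower in type H than in CD200-high, and 7 higher and 2 lower than in arterial (0 to 3 lower without 1 library). Without type H replicate 3 the 3 lower than in CD200-high came to 1. After the shift 3 were higher and 7 lower in type H than in arterial. Stab1, a scavenger receptor gene of sinusoidal endothelium that also takes part in leukocyte passage, stood at 8.36 ± 0.15 in type H, 5.41 ± 0.29 in CD200-high (adjusted p = 0.00282) and 3.57 ± 0.72 in arterial (4.79 ± 0.52, adjusted p = 0.000102). The junction genes F11r and Esam stood at 9.29 ± 0.17 and 10.26 ± 0.11 in type H and at 6.87 ± 0.32 and 8.03 ± 0.22 in arterial (adjusted p = 4.05e-05 and 8.79e-05). Both were also higher than in CD200-high (-1.18 and -0.98 as CD200-high minus type H, adjusted p = 0.00421 and 0.0168), but the Esam call was lost without CD200-high replicate 1 (0.0614), type H replicate 1 (0.0563) or type H replicate 3 (0.0521), over a range of 0.000605 to 0.811. After the shift F11r and Esam no longer differed from arterial by a call (-0.00123 and -0.19), though Esam is among the genes whose median set the shift.

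Of 9 enzymes that build selectin-binding sugars, of 10 listed, 2 were higher and 1 lower in type H than in CD200-high, and 2 higher and 2 lower than in arterial, counts that moved to between 0 and 3 without 1 library. Chst2, a sulphotransferase gene that contributes to L-selectin ligands, stood at 8.12 ± 0.37 in type H, 3.93 ± 0.46 in CD200-high (adjusted p = 0.00066), 2.48 ± 1.29 in arterial (5.64 ± 0.59, adjusted p = 8.72e-05, or 4.90 without arterial replicate 1) and 1.83 ± 0.44 in the libraries labelled sinusoidal, and remained called higher in type H than in the first 2 with equal pan-endothelial medians. St3gal4, a sialyltransferase gene, was higher in type H than in CD200-high and arterial (adjusted p = 0.0288 and 0.0276), and the galactosyltransferase gene B4galt1 lower (adjusted p = 0.0151 and 0.0236). Both were lost without single libraries. St3gal4 was lost against CD200-high without CD200-high replicate 1 or 2 or any type H library (adjusted p = 0.0512 to 0.0931, over a range of 0.0101 to 0.289) and against arterial without type H replicate 2 or 3 or any arterial library (0.0600 to 0.0868, over 0.00439 to 0.0868). B4galt1 was lost against CD200-high without type H replicate 1 or 3 (0.0540 and 0.0592, over 0.000148 to 0.0866) and against arterial without those or any arterial library (0.0511 to 0.0848, over 1.77e-05 to 0.0848), and without type H replicate 2 the differences were 2.54 and -2.26 in place of 1.90 and -1.61.

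Of 14 TGF-beta receptor and target genes, through which LRG1 is known to act, 4 were higher and 0 lower in type H than in CD200-high (2 to 4 higher without 1 library), and 8 higher and 0 lower than in arterial. After the shift the latter became 1 higher and 7 lower. Eng, the endoglin co-receptor gene to which LRG1 binds, is among the pan-endothelial genes whose median set the shift. It stood at 9.82 ± 0.16 in type H, 8.09 ± 0.16 in CD200-high and 6.78 ± 0.17 in arterial (3.05, adjusted p = 3.72e-06), and was called higher in type H than in both also after the shift. Tgfbr3 stood at 8.72 ± 0.03, 5.97 ± 0.21 and 7.41 ± 0.49 (adjusted p = 7.14e-05 and 0.0066), with the difference from arterial turned to -1.10 by the shift. The target gene Id1 stood at 8.04 ± 0.19, 8.13 ± 0.23 and 7.26 ± 0.17, a difference from arterial of 0.78 (adjusted p = 0.0317) that was lost without any 1 of the 6 libraries compared (adjusted p = 0.0506 to 0.108, over a range of 0.000692 to 0.108).

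Of 15 genes that tie adhesion receptors to actin, of 16 listed, 2 were higher and 0 lower in type H than in CD200-high (0 or 1 higher without 1 library), and 6 higher and 1 lower than in arterial (3 to 6 higher), or 0 and 12 after the shift. The actinin gene Actn4 stood at 8.89 ± 0.20 in type H and 8.03 ± 0.16 in arterial (adjusted p = 0.00259). Ezr, which encodes ezrin, was the one lower, at 5.91 ± 0.27 against 7.55 ± 0.04 (adjusted p = 0.00022).

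The partners carried by leukocytes moved the other way. Of 11 such genes, 0 were higher and 8 lower in type H than in arterial (7 to 10 lower without 1 library), with a list median of -3.16, and 3 were lower and 0 higher than in CD200-high (3 to 5 lower). Selplg, which encodes the P-selectin ligand PSGL-1, stood at 6.86 ± 0.45 in type H and 9.10 ± 0.17 in arterial (-2.24, adjusted p = 0.000136). Spn, the leukosialin gene of white blood cells, stood at -0.41 ± 1.31 in type H, 3.19 ± 1.34 in CD200-high (adjusted p = 0.00794) and 5.44 ± 0.45 in arterial (-5.85, adjusted p = 0.000286). Its differences were 4.35 from CD200-high without CD200-high replicate 1, 4.36 without type H replicate 1, and -6.60 from arterial without type H replicate 1. Itgb1, the integrin beta 1 gene that stromal and endothelial cells also express, was lower in type H, at 7.94 ± 0.35, than in CD200-high, at 8.96 ± 0.34 (adjusted p = 0.0102). Neutrophil and macrophage markers were likewise lower in type H than in arterial, at the shares given above, and their part in these differences was not tested.

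**Figure D5:**
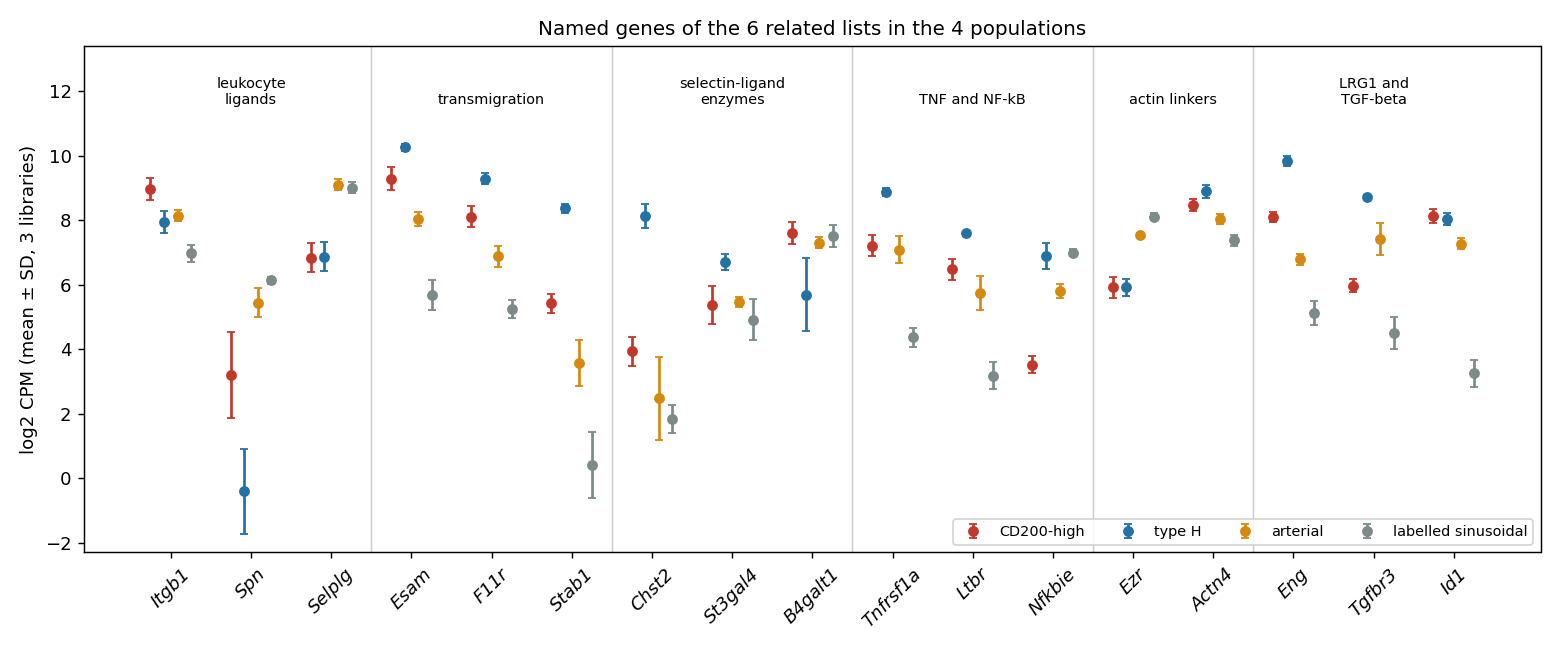
Expression (log2 CPM, mean ± SD of 3 libraries) of the 17 named genes of the 6 related lists in the 4 populations, with the deposited scaling. Chst2, Stab1 and Tnfrsf1a stand highest in type H, and Spn and Selplg stand lower there than in arterial libraries.

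Some values carry an uncertainty of counting. Exons of Icam1, Vcam1, Selp and Cd34 overlap annotated RNAs on the opposite strand over 511, 61, 438 and 148 bases (Gm47079, Gm43109, Gm16548 and Gm16897; Selp also Gm16587 over 186). The strand counted is not stated, so reads of these genes in the overlaps cannot be assigned. Sele, Madcam1, Icam2 and Lrg1 had no such overlap in the annotation used.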

How the data were processed

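RNA-seq of 12 libraries in 4 sorted populations was analysed from 1 deposited table of 17362 genes. The values deposited are log2 CPM, relative to an effective library size and with 0.5 read added, and undoing this gave whole reads within 0.01 for 100% of values. The authors' scaling method is not given in the sources used here. Per the submitters' processing notes, Trimmomatic, STAR, SAMtools, deepTools, featureCounts and R 4.3 were used, with build hg38 named although the samples are mouse, so no coordinate rests on the files.

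Differences were tested with limma 3.58.1 (R 4.3.3) with a mean-variance trend, with all 12 libraries in 1 fit, no block and Benjamini-Hochberg adjustment. Genes were kept where 3 or more libraries reached 10 reads after scaling to 15.9 M, the mean effective size (0.63 CPM), which removed 276. The script was tested on simulated data. The genes and lists were chosen with earlier results of these data known. Named related genes are those called in the most of 6 comparisons, up to 3 per list (1 is not reported here), and nearest patterns needed a population mean of at least 5 log2 CPM. Intervals and floors (3 reads) do not cover error beyond counting, as reads carried no molecular identifiers.

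The labels give mouse numbers shared by the 4 populations, taken as pairs in an alternative. Deviations of same-numbered libraries correlated at -0.05 to 0.09 over 11351 genes (median 0.02, 18 pairs, 0 over 0.1). These values cover all genes together, and single genes could still follow the mouse number. Lrg1 and the share of neutrophil markers were highest in replicate 3 of all 4 populations. Where libraries came from pooled mice is not stated, so p-values measure the spread between these samples.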

Additional observations from a re-analysis of the deposited data

How the results depend on the processing

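The count of the 8 genes called kept its value in the fit with the replicate number as a block (2, 7, 4, 7, 8 and 3 for CD200-high against arterial, type H and sinusoidal, type H against arterial and sinusoidal, and arterial against sinusoidal), and the block changed no call of these genes. Of the values of the 8 genes under all alternatives, 884 kept direction and call, 10 lost the call, 22 gained it and 29 turned sign. Without 1 library the counts ran from 2 to 3, 7 to 8, 4 to 4, 6 to 7, 7 to 8 and 3 to 4, and the counts over all genes, 2204, 2223, 4902, 3536, 4882 and 1748, from 1353 to 2458, 1689 to 2328, 3499 to 5223, 2581 to 3726, 3836 to 5113 and 1019 to 1870, lowest without arterial replicate 1 in the first and arterial replicate 3 in the last. Fits of the 2 populations alone called 1337 genes for CD200-high against type H and 2829 for arterial against sinusoidal.

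With equal pan-endothelial medians the counts of the set were 4 for CD200-high against arterial, 7 against sinusoidal, where Madcam1 is counted without reads, and 6 for arterial against sinusoidal, likewise. Over all genes 8773 were called for CD200-high against arterial (109 higher and 8664 lower, against 811 and 1393 as deposited), 3194 against type H (2799 and 395, against 1138 and 1085), 14957 against sinusoidal (117 and 14840, against 2407 and 2495), 12571 for type H against arterial (181 and 12390, against 1360 and 2176), 15705 against sinusoidal (97 and 15608, against 2383 and 2499) and 12894 for arterial against sinusoidal (193 and 12701, against 1383 and 365). Signs turned for CD200-high against arterial in Icam1 (-0.94), Icam2 (-0.56) and Cd34 (-0.40), and against sinusoidal in Icam1 (-4.90), Icam2 (-3.96), Vcam1 (-5.34), Cd34 (-0.21) and Lrg1 (-3.81). They turned for type H against arterial in Icam2 (-0.52), Vcam1 (-1.39), Cd34 (-2.26), Esam (-0.19), F11r (-0.00123), St3gal4 (-1.17), Tnfrsf1a (-0.62), Ltbr (-0.58), Nfkbie (-1.32), Actn4 (-1.56), Tgfbr3 (-1.10) and Id1 (-1.64), and against sinusoidal in Icam1 (-3.23), Icam2 (-3.93), Vcam1 (-2.00), Selp (-2.64), Cd34 (-2.07) and Lrg1 (-0.68). For arterial against sinusoidal they turned in Icam2 (-3.41), Vcam1 (-0.62) and Lrg1 (-1.98). The shift is built to remove differences in endothelial content, whatever their origin.

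Other turns were in differences that were not called. Vcam1 in CD200-high against sinusoidal was -0.23 with total listed reads, -0.22 without CD200-high replicate 2 and -0.00501 without sinusoidal replicate 3. Sele there was 0.00226 and 0.0626 with 1 and 10 CPM added and 1.04 without CD200-high replicate 2. Cd34 in type H against arterial was -0.0561 without type H replicate 2 and -0.04 without arterial replicate 1, and Icam1 in arterial against sinusoidal 0.0881 without arterial replicate 1. Over the fits without 1 library these 4 differences ran from -0.222 to 0.251, -2.53 to 1.04, -0.0561 to 0.452 and -0.350 to 0.0881. The cause was not tested.

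Fits without 1 library kept the genes of the full filter, a choice made after seeing that Madcam1, with reads in 3 libraries, failed a filter computed without a type H library. Related genes were tried under the alternatives for type H against CD200-high and arterial, chosen after seeing that the shift turned 10 of the 16 called for type H against sinusoidal and 11 of the 15 called for CD200-high against sinusoidal, whose differences are not reported. A planned quasi-likelihood count test was not run. Depth limits Sele, Selp and Madcam1 outside type H, where libraries held 0 to at most 645 reads.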
